A study of Mus musculus with 6 samples.

Results

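NRF2 is the transcription factor that epithelial cells use to switch on their defence against oxidants and electrophiles, and the 10 genes examined here are Nfe2l2, which encodes it, and 9 genes of the antioxidant defence. They were taken by gene symbol alone from the 21397 genes of the deposited table: Nfe2l2, Gclc, Gclm, Slc7a11, Txnrd1, Srxn1, Gpx2, Cat, Nqo1 and Hmox1. All 10 were found, and all 10 had a mean level of at least 1 FPKM (fragments per kilobase of transcript and scaled to the library total), the minimum for testing, which 10551 genes reached.

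Small intestinal organoids, which are epithelial cultures that grow crypt-like buds, were derived from ileal crypts of Fpr2f/f mice, so the floxed Fpr2 alleles were carried by both groups. The MMK-1 group (3 libraries) received MMK-1, a synthetic peptide that activates FPR2, at 1 μmol/L for 5 days, and the Control group (3 libraries) received the vehicle alone, 0.1% DMSO, for the same time. By the study's methods the concentration of DMSO was the same in both groups. The libraries held 35512739 to 37537463 fragments, as recovered from the deposited values. One label of the MMK-1 libraries gives the concentration as 1 mM, and that of the protocol is used here. By the legend of the study's RNA-seq figure each sample pooled organoids from 3 mice, and the study's statistics section speaks of independent experiments in general. The labels do not say whether these pools came from separate cultures, so the p-values measure the spread between these samples, part of which may be technical.

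Under resting conditions the adaptor protein KEAP1 holds NRF2 and hands it to a CUL3 ubiquitin ligase for degradation. When oxidants or electrophiles modify KEAP1, NRF2 escapes, enters the nucleus, pairs with a small MAF protein and binds antioxidant response elements (AREs) near its target genes, while BACH1 competes for the same elements as a repressor. Because this control acts mainly on the protein, the mRNA of Nfe2l2 is not a measure of NRF2 activity. Gclc, Gclm, Slc7a11, Txnrd1, Srxn1, Gpx2, Nqo1 and Hmox1 are widely used as target genes, whereas Cat, the peroxisomal catalase, is an antioxidant enzyme with several other regulators.

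The promoters of 4 genes are shown, chosen by their change in level: Gclm, Srxn1 and Cat fell most, and Gpx2 was the most abundant gene that rose. The sequences are RefSeq promoter windows of 300 bases on GRCm38.p6, from 250 bases before the annotated start site to 50 bases after it, written 5′ to 3′ on the strand of the gene. Capitals mark matches to the ARE core, searched as TGACNNNGC on both strands, and to the AP-1 site, searched as TGACTCA on both strands. The patterns can overlap, but no match here counted under both. The windows are chr3:122245307-122245606 (plus strand) for Gclm, chr2:152105274-152105573 (plus strand) for Srxn1, chr2:103485104-103485403 (minus strand) for Cat and chr12:76795505-76795804 (minus strand) for Gpx2.
Gclm: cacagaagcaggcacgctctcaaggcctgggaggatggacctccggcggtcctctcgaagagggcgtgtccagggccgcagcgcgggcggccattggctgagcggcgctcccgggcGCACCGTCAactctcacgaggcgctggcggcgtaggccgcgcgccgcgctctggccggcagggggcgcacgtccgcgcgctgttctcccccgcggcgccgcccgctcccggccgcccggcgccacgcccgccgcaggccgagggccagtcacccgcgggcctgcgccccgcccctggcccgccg
Srxn1: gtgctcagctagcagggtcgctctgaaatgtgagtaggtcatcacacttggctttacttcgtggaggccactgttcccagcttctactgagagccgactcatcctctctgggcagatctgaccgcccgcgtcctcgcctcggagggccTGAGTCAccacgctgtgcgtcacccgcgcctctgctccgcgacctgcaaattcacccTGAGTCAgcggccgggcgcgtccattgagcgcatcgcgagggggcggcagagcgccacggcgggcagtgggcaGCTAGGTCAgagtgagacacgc
Cat: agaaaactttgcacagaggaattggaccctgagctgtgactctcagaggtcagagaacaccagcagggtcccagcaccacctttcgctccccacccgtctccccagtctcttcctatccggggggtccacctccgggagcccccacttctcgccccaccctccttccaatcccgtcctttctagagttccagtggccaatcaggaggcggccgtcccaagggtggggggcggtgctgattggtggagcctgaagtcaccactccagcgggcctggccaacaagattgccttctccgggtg
Gpx2: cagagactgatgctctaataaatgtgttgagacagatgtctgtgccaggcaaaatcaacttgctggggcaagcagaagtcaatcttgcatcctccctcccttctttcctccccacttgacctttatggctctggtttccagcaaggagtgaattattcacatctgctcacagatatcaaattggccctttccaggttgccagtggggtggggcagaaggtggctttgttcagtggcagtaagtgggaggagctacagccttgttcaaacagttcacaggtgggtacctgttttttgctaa

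Windows were matched for 8 of the 10 genes, all but Hmox1 and Gclc. They had 10 windows, since Txnrd1 had 3, and an ARE core lay in 4 of the 10, each of a different gene, and in 12.4% of all 32851 promoter windows. The match began 134 bases before the start site in Gclm and at base 28 after it in Srxn1. The other 2 genes with a match were Nfe2l2, whose match began 240 bases before the start site, and Txnrd1, whose match began 92 bases before the start of 1 of its 3 annotated promoters. With 10 bases on each side these matches read as follows.
Nfe2l2, chr2:75704895-75704903 (minus strand): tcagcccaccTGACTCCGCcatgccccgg
Txnrd1, chr10:82859114-82859122 (plus strand): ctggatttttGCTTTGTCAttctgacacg

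Srxn1 was the 1 gene with AP-1 matches, at 102 and 45 bases before its start site, and 5.20% of all windows held such a match. The windows of Cat, Gpx2, Nqo1 and Slc7a11 held no match to either motif, which says only that these letters are not in those 300 bases. Of the 4 genes with an ARE core, Gclm and Srxn1 fell, and Nfe2l2 and Txnrd1 were not called. Of the genes with no match, Cat and Nqo1 fell, and Gpx2 and Slc7a11 rose. The part of these motifs in the changes was not tested.

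MMK-1 was compared with Control, the single contrast of the series, to find genes that change in organoids when FPR2 is activated. The antioxidant genes moved in both directions: 3 of the 10 genes were higher with MMK-1 (Slc7a11, Gpx2 and Hmox1), 5 were lower (Cat, Gclm, Srxn1, Nqo1 and Gclc), and Nfe2l2 and Txnrd1 did not pass the test. The test was limma's moderated test on log2(FPKM + 1), with p-values adjusted by Benjamini-Hochberg over all genes tested and a threshold of 0.05, and across all genes 48.5% were called higher and 24.7% lower. The levels did not overlap between groups for 9 of the 10 genes (all but Nfe2l2), and for 76.8% of all genes tested. In these bulk cultures, fewer cells of a type and less RNA per cell cannot be told apart.

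**Figure D1:**
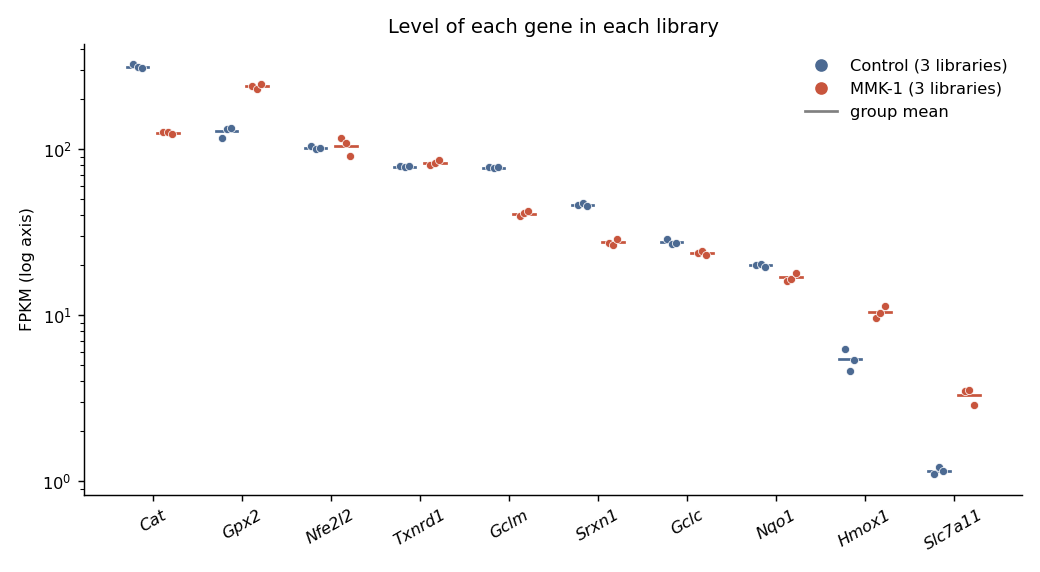
Level of each of the 10 genes in FPKM (log axis) in the 3 Control libraries (blue) and the 3 MMK-1 libraries (red), with the group means as lines and the genes in the order of their Control mean. The points of Cat, Gclm, Srxn1, Gclc and Nqo1 lie lower with MMK-1, those of Gpx2, Hmox1 and Slc7a11 lie higher, and those of Nfe2l2 overlap.

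Nfe2l2 (chr2:75675513-75704663, GRCm38.p6) measured 105, 99.6 and 101 FPKM in Control replicates 1 to 3 and 116, 108 and 90.4 FPKM in MMK-1 replicates 1 to 3. MMK-1 replicates 1 and 2 lay above every Control library and MMK-1 replicate 3 lay below them all, so the groups overlapped. The mean was 102 ± 2.76 FPKM in Control and 105 ± 13.0 FPKM with MMK-1 (SD, n = 3 libraries each, as for all means here). The log2 fold change was 0.03 (SE 0.0811, 95% confidence interval −0.15 to 0.22, adjusted p = 0.723). Its sign turned with the scaling between libraries, to −0.05 with upper-quartile scaling and −0.11 with median-ratio scaling.

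The low value of Nfe2l2 belonged to a library that stood apart. Between MMK-1 replicate 3 and MMK-1 replicates 1 and 2, the chi-square of the fragments over genes was 34.37 and 29.38 per degree of freedom, against 2.77 to 4.77 for every other pair within a group. In this library Nfe2l2 was 0.31 lower on the log2 scale, and Slc7a11 0.28 lower, than the mean of MMK-1 replicates 1 and 2, whereas Hmox1 was 0.18 and Nqo1 0.15 higher. Without it the log2 fold change of Nfe2l2 was 0.13 with an adjusted p of 0.0118, which made 4 genes higher with MMK-1 instead of 3, and no call of the other 9 genes changed.

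Keap1, the inhibitor of NRF2, measured 21.1, 21.1 and 20.5 FPKM in Control and 20.5, 19.4 and 22.1 FPKM with MMK-1, so its groups overlapped too. Its log2 fold change was −0.02 (SE 0.0519, adjusted p = 0.767), which became 0.02 without MMK-1 replicate 2 and −0.16 with median-ratio scaling, where it was called lower. The ratio of Nfe2l2 to Keap1 within a library, which no scaling between libraries can change, was 4.96, 4.72 and 4.91 in Control and 5.64, 5.56 and 4.10 with MMK-1. The mean log2 difference of this ratio was 0.05 (SE 0.152, exact two-sided permutation p = 1.0), and without MMK-1 replicate 3 it was 0.20. Bach1, the repressor at AREs, rose from 24.0 ± 0.549 to 30.1 ± 2.44 FPKM (log2 fold change 0.31, SE 0.0598, adjusted p = 0.00146).

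Glutathione is made in a first, rate-limiting step by glutamate-cysteine ligase, whose catalytic subunit is encoded by Gclc and whose modifier subunit by Gclm. Gclm (chr3:122245487-122267215) measured 77.7, 76.7 and 77.5 FPKM in Control and 39.3, 41.0 and 42.1 FPKM with MMK-1. Every MMK-1 library lay far below every Control library, and the mean was 47.2% lower. The log2 fold change was −0.91 (SE 0.0401, adjusted p = 2.0e-07).

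Gclc (chr9:77754535-77794489) measured 28.6, 26.8 and 27.3 FPKM in Control and 23.7, 24.2 and 23.1 FPKM with MMK-1. The groups did not overlap, but the fall was smaller: the mean was 14.2% lower, with a log2 fold change of −0.21 (SE 0.0430, adjusted p = 0.00190). The catalytic subunit thus fell less than the modifier subunit. The ratio of Gclc to Gclm was 0.368, 0.349 and 0.353 in Control and 0.602, 0.589 and 0.549 with MMK-1, a mean log2 difference of 0.70 (SE 0.0469). The ratios did not overlap, and the exact permutation p was 0.1, the smallest that 3 against 3 libraries allow.

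Slc7a11 encodes the light chain of the cystine/glutamate antiporter, which brings in the cystine that glutathione synthesis uses. It was the lowest of the 10 genes, with 1.10, 1.21 and 1.15 FPKM in Control, which were 388, 425 and 404 fragments, and 3.49, 3.53 and 2.88 FPKM with MMK-1, which were 1163, 1190 and 1005 fragments. Each MMK-1 library was thus more than double any Control library, and the ratio of the means was 2.86. The log2 fold change was 0.99 (SE 0.0723, adjusted p = 3.8e-06) on the log2(FPKM + 1) scale, which understates the change of a gene at this level. It was 1.43 with a pseudocount of 0.1 and 1.51 by limma-voom on the fragments. Slc7a11 (chr3:50364936-50499087) therefore went up while Gclm and Gclc went down.

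**Figure D2:**
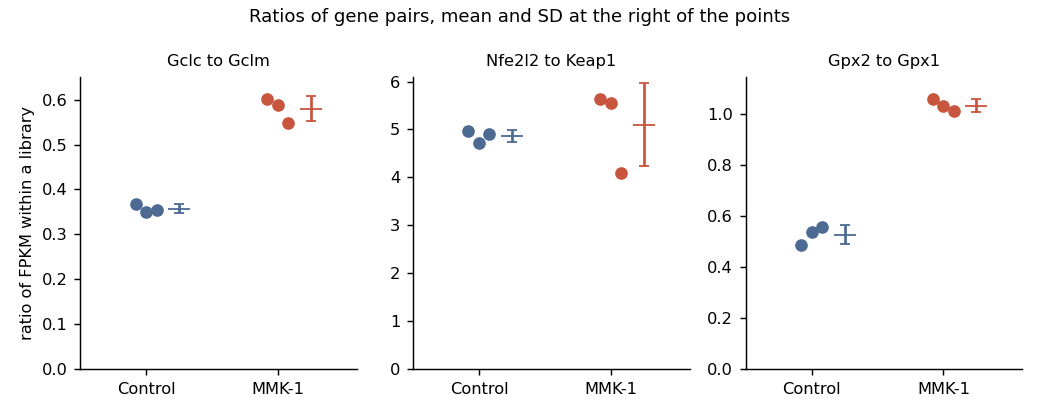
Ratios of FPKM within each library for 3 gene pairs, with Control in blue, MMK-1 in red and the mean ± SD (n = 3) at the right of the points. The ratio of Gclc to Gclm rose from 0.357 ± 0.0101 to 0.580 ± 0.0280 and that of Gpx2 to Gpx1 from 0.527 ± 0.0373 to 1.04 ± 0.0237 without overlap, whereas that of Nfe2l2 to Keap1 overlapped (4.87 ± 0.128 and 5.10 ± 0.869).

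Txnrd1 encodes cytosolic thioredoxin reductase, which keeps thioredoxin reduced. Its level was 79.1, 77.5 and 78.5 FPKM in Control and 79.9, 82.6 and 86.1 FPKM with MMK-1. The groups did not overlap, yet the log2 fold change of 0.08 (SE 0.0408, 95% confidence interval −0.01 to 0.17) did not pass the test (adjusted p = 0.110), and it turned to −0.0024 with upper-quartile and −0.07 with median-ratio scaling. Txnrd1 (chr10:82833951-82897724) overlaps the non-coding gene Gm38560, at a mean of 4.13 FPKM in Control and 1.72 FPKM with MMK-1, and also Eid3, which stayed below the minimum for testing. The strand setting of the counting is not given in the sources used here, so reads of overlapping genes could have been shared.

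Srxn1 encodes sulfiredoxin, which restores peroxiredoxins that peroxide has over-oxidised. It measured 46.2, 47.0 and 45.4 FPKM in Control and 27.3, 26.4 and 28.9 FPKM with MMK-1. All 3 MMK-1 libraries lay below all 3 Control libraries, and the mean was 40.4% lower. Srxn1 (chr2:152105524-152111376) had a log2 fold change of −0.73 (SE 0.0449, adjusted p = 1.4e-06), so of the genes around thioredoxin and peroxiredoxin, Srxn1 fell and Txnrd1 was not called.

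Hydrogen peroxide is removed by glutathione peroxidases in the cytosol and by catalase in peroxisomes. Gpx2, the glutathione peroxidase of the gastrointestinal epithelium, measured 117, 132 and 134 FPKM in Control and 239, 230.4 and 248 FPKM with MMK-1. Every MMK-1 library was far above every Control library, with a log2 fold change of 0.90 (SE 0.0567, adjusted p = 1.6e-06). Gpx2 lies at chr12:76792335-76795554.

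Gpx1, the ubiquitous family member, measured 242, 246 and 240.3 FPKM in Control and 225, 223 and 244 FPKM with MMK-1. Its groups overlapped, and its log2 fold change of −0.07 (SE 0.0443, adjusted p = 0.162) was not called, although it was called lower with 4 other settings, down to −0.22. The ratio of Gpx2 to Gpx1 within a library was 0.485, 0.539 and 0.557 in Control and 1.06, 1.03 and 1.01 with MMK-1, a mean log2 difference of 0.98 (SE 0.0629, exact permutation p = 0.1). Gpx2 was thus below Gpx1 in every Control library and above it in every MMK-1 library.

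Cat (chr2:103453904-103485153) had the highest Control level of the 10 genes. It measured 323, 312 and 308 FPKM in Control and 127, 126 and 123 FPKM with MMK-1. The libraries of each group lay close together and the groups far apart. The mean fell from 314 ± 8.06 to 125 ± 2.17 FPKM, a 2.51-fold lower level, and the log2 fold change was −1.32 (SE 0.0377, adjusted p = 1.9e-08). On the log2(FPKM + 1) scale, Cat was the 1 member of the 10 that passed the study's thresholds (fold 2, unadjusted p 0.05), as did 7.04% of all genes tested. With the ratio of the mean FPKM as the fold, 2 members met these thresholds, Cat and Slc7a11 (2.86), and so did 11.7% of all genes tested. Gclm, at 1.89-fold lower, did not. The thresholds were applied here to limma's p-values for genes of at least 1 FPKM, so these calls need not be those of the study.

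**Figure D3:**
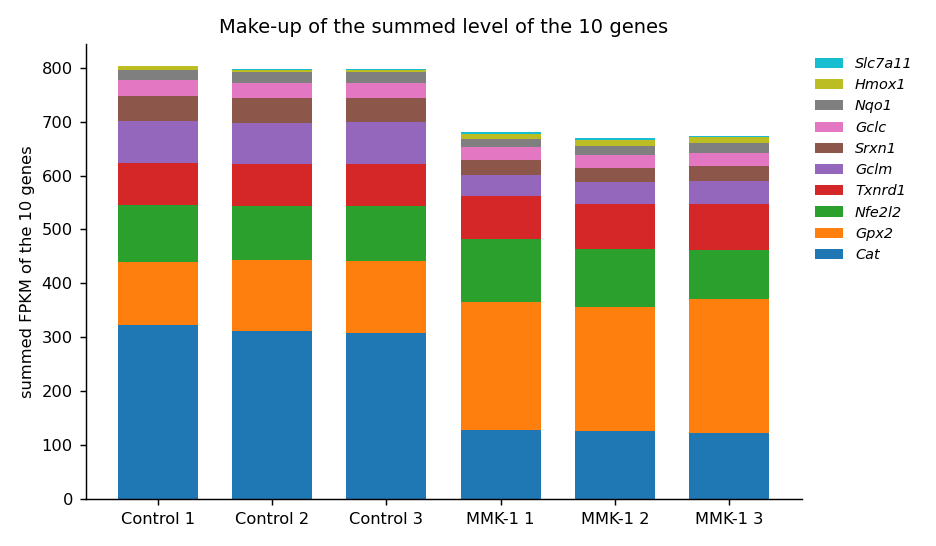
Summed FPKM of the 10 genes in each library, with each gene's part stacked in the order of the Control means. The sum was 797 to 804 in Control and 668 to 682 with MMK-1, while the part of Cat went from 38.6 to 40.2% down to 18.3 to 18.8% and that of Gpx2 from 14.6 to 16.8% up to 34.5 to 36.8%.

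These changes reversed the order of the leading pair. Cat was highest and Gpx2 second in Control, and Gpx2 was highest and Cat second with MMK-1. The order of the 8 other genes by their means was the same in both groups: Nfe2l2, Txnrd1, Gclm, Srxn1, Gclc, Nqo1, Hmox1 and Slc7a11. Neighbours in this order did not overlap in their libraries, except Txnrd1 and Gclm in Control. The lower sum of the 10 genes rested on Cat: without Cat it was 481 to 489 FPKM in Control and 543 to 554 FPKM with MMK-1. Without both Cat and Gpx2 it was 354 to 364 FPKM in Control and 303 to 315 FPKM with MMK-1.

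Nqo1 encodes the quinone reductase that serves as a standard readout of NRF2. It measured 20.0, 20.4 and 19.6 FPKM in Control and 16.1, 16.5 and 18.0 FPKM with MMK-1. The highest MMK-1 library stayed below the lowest Control library, and the mean was 15.5% lower. The log2 fold change was −0.23 (SE 0.0509, adjusted p = 0.00299). Nqo1 lies at chr8:107388225-107403205.

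Hmox1 encodes the inducible heme oxygenase, which opens the heme ring to biliverdin, iron and carbon monoxide. It measured 6.23, 4.63 and 5.36 FPKM in Control (368, 274 and 316 fragments) and 9.61, 10.3 and 11.3 FPKM with MMK-1 (538, 581 and 661 fragments). The lowest MMK-1 library was above the highest Control library, and the ratio of the means was 1.92. Hmox1 (chr8:75093618-75100593) had a log2 fold change of 0.83 (SE 0.0929, adjusted p = 5.2e-05), the largest SE of the 10 genes. Hmox1 is also known from macrophages, and the 8 immune markers summed to 5.41 to 6.19 FPKM in Control and 1.81 to 2.92 FPKM with MMK-1. Itgam and Cd68 made up most of this sum and were the 2 markers tested, both lower with MMK-1. Of the 6 markers below the minimum for testing, Csf1r, a macrophage marker, had 20, 23 and 23 fragments in Control and 0, 1 and 2 with MMK-1. Ptprc, Tyrobp, Cd3e, Cd79a and Adgre1 had at most 3 fragments in any library, too few for a direction. The part of immune cells in the level of Hmox1 was not tested.

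**Figure D4:**
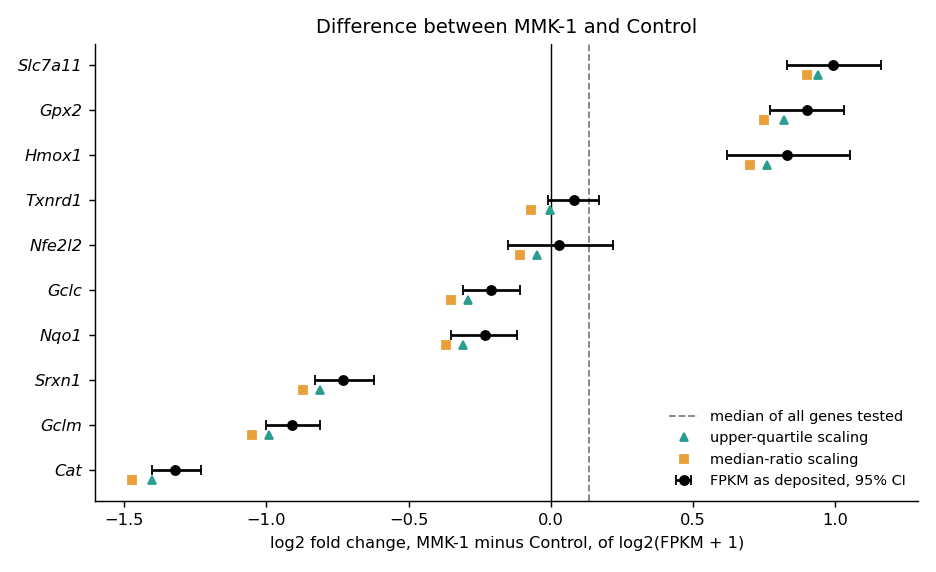
Log2 fold change of each gene (MMK-1 minus Control on the log2(FPKM + 1) scale), with its 95% confidence interval in black and the values under 2 other scalings as triangles and squares, and the median of all genes tested as a dashed line. From Cat at −1.32 to Slc7a11 at 0.99, 8 intervals exclude 0, and the other scalings lower all 10 values and turn the sign of Nfe2l2 and Txnrd1.

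The deposited values carry a shift between the groups, since all genes tested had a median log2 fold change of 0.13 as deposited, 0.06 with upper-quartile scaling and 0.01 with median-ratio scaling. Across all genes, 5118 were called higher and 2606 lower as deposited, and 3792 higher and 3828 lower with median-ratio scaling. The median of the 10 genes was −0.09 as deposited and −0.23 with median-ratio scaling. Relative to the median of all genes, the log2 fold change was −1.45 for Cat, −1.04 for Gclm, −0.86 for Srxn1, −0.37 for Nqo1 and −0.35 for Gclc among those called lower. On the same scale it was 0.86 for Slc7a11, 0.77 for Gpx2 and 0.70 for Hmox1. The calls of these 8 genes kept their direction in all 13 alternative settings.

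Other genes of the pathway were read from lists. Some genes recur between lists, so the counts of the lists are not separate observations. Among 11 NRF2 regulators, 7 were higher, 2 lower and 2 not called, beside 48.5% higher and 24.7% lower over all genes tested. Their median log2 fold change was 0.22, beside 0.13 for all genes tested. With median-ratio scaling 4 regulators were higher and 3 lower, beside 3792 higher and 3828 lower of all 10551 genes. These counts are not far from those of all genes and are not read as a result about the regulators. The largest rises were those of Maff, a small MAF partner (2.70 to 4.30 FPKM, log2 fold change 0.52), of Nfe2l1, the related factor NRF1 (24.0 to 34.1 FPKM, 0.49), and of Gsk3b, a kinase that marks NRF2 for degradation (10.6 to 14.4 FPKM, 0.41). Sqstm1, which encodes the KEAP1-binding autophagy receptor p62 and is itself an NRF2 target, fell from 47.7 to 33.7 FPKM (−0.49). Btrc, a ubiquitin ligase adaptor, fell from 1.19 to 0.940 FPKM (−0.17, adjusted p = 0.0406), a call that was lost in 6 other settings.

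Most of the other NRF2 target genes were lower as well. Of 30 such genes, all tested, 23 were lower and 7 higher, beside 24.7% lower and 48.5% higher over all genes tested. The median log2 fold change was −0.51, and −0.65 with median-ratio scaling. The summed level of the 30 genes was 12737 to 13268 FPKM in Control and 7995 to 8719 FPKM with MMK-1. Most of this sum and of its fall lay in Ftl1 (2537 to 1592 FPKM), Fth1 (2082 to 1434 FPKM), Gstm3 and Gstm1 (1581 to 755 FPKM). The largest falls were in Gsta3 (173 to 50.9 FPKM, log2 fold change −1.75) and Gstm3 (1726 to 696 FPKM, −1.32), which encode glutathione S-transferases, and in Abcc2 (199.8 to 85.8 FPKM, −1.21), which encodes an apical export pump for conjugates. GST genes have close copies among which reads can be split, so the values of single GST genes are uncertain.

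The largest rises in this list were in 3 genes. Me1, the cytosolic malic enzyme, went from 22.2 to 48.2 FPKM (log2 fold change 1.09) and Taldo1, the transaldolase of the pentose phosphate pathway, from 273 to 386 FPKM (0.49). Abcc1, an export pump for glutathione conjugates, went from 2.75 to 4.81 FPKM (0.63). Adjusted p was at most 1.0e-05 for all 3 of these genes. Other enzymes of the same routes went both ways. G6pdx, which makes NADPH at the entry of the pentose phosphate pathway, rose from 34.9 to 42.9 FPKM (0.29, adjusted p = 2.9e-04). Idh1, which like Me1 makes NADPH, fell from 193 to 116 FPKM (−0.73), and Pgd (−0.16) and Tkt (−0.18) of the pentose phosphate pathway fell too. G6pdx, Idh1, Pgd and Tkt were chosen after their values were seen.

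Among 28 other antioxidant enzymes, 22 were tested, of which 6 were higher, 11 lower and 5 not called. Over all genes tested, 48.5% were called higher and 24.7% lower. The median of the 22 enzymes was −0.10, and Prdx1, Prdx6, Txn1 and Gsr were also in the list of NRF2 targets. With median-ratio scaling 3 were higher and 14 lower, beside 3792 higher and 3828 lower of all 10551 genes. The enzymes that fell most were Msra, a methionine sulfoxide reductase (34.8 to 15.8 FPKM, log2 fold change −1.09), Glrx, glutaredoxin (136 to 79.4 FPKM, −0.77), and Gpx4, the phospholipid hydroperoxide peroxidase (262 to 160.4 FPKM, −0.71). Those that rose most were Prdx4 (3.44 to 7.31 FPKM, 0.90), Prdx2 (108 to 138 FPKM, 0.34) and Prdx6 (88.7 to 107 FPKM, 0.27). The peroxiredoxin family was split, since Prdx1 (587 to 429.9 FPKM, −0.45), Prdx3 (106 to 90.5 FPKM, −0.22) and Prdx5 (112 to 75.9 FPKM, −0.55), chosen after their values were seen, fell. Gpx4 thus fell while Gpx2 rose and Gpx1 was not called.

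Glutathione metabolism, as annotated from KEGG in the table, held 68 genes, 3 of them members (Gclc, Gclm and Gpx2). Idh1, Pgd, G6pdx, Gsr, Prdx6 and several GST genes were also in the list of NRF2 targets. Gpx1, Gpx4 and Gss were also among the other antioxidant enzymes. Of the 55 tested, 34 were lower and 15 higher, beside 24.7% lower and 48.5% higher over all genes tested. The median was −0.41, and with median-ratio scaling 36 were lower and 13 higher. A fold change of at least 2 on the log2(FPKM + 1) scale was found for 16, beside 7.04% of all genes tested. The steepest falls were in Anpep, a brush-border aminopeptidase and also a marker of enterocytes here (623 to 85.9 FPKM, log2 fold change −2.84), in Ggt1, the γ-glutamyltransferase that breaks down extracellular glutathione (105 to 20.0 FPKM, −2.35), and in Gsta2 (118 to 22.3 FPKM, −2.35). The genes that rose most were Chac2, which degrades glutathione (9.04 to 20.4 FPKM, 1.04, SE 0.229), the transferase Gstm5 (9.53 to 19.3 FPKM, 0.94) and the member Gpx2. Chac2 measured 10.3, 8.71 and 8.07 FPKM in Control and 25.6, 23.3 and 12.3 FPKM with MMK-1, so the library that stood apart lay near Control. The log2 fold change of Chac2 was 1.35 without it and ranged from 0.66 to 1.35 over all settings.

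Beside Hmox1, 3 further genes of heme breakdown were listed. Hmox2, the constitutive heme oxygenase, rose from 20.3 to 26.9 FPKM (log2 fold change 0.39, adjusted p = 5.2e-05). Blvrb, a biliverdin reductase, fell from 22.4 to 15.2 FPKM (−0.53, adjusted p = 9.8e-05), and Blvra was at 9.94 and 8.60 FPKM (−0.18, adjusted p = 0.0865). With both scaling alternatives Blvra was called lower.

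Slc7a11 is also a target of ATF4, the factor of the amino acid and integrated stress response. Of 9 genes, Atf4 and 8 of its targets, 8 were higher and none lower, beside 48.5% higher and 24.7% lower over all genes tested. The median of the 9 genes was 0.65. Atf4 itself was not called (209 and 210 FPKM, log2 fold change 0.01, adjusted p = 0.914). The largest rises were in Slc7a5, an amino acid transporter (log2 fold change 0.96), Phgdh, the first enzyme of serine synthesis (44.9 to 85.9 FPKM, 0.92), and Chac1 (11.0 to 18.5 FPKM, 0.71). With median-ratio scaling 6 were higher and 1 lower. Slc3a2, the heavy chain with which both Slc7a11 and Slc7a5 pair, was in the list of NRF2 targets and fell from 26.4 to 18.6 FPKM (−0.49, adjusted p = 4.9e-05). Slc3a2 was chosen after its values were seen.

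**Figure D5:**
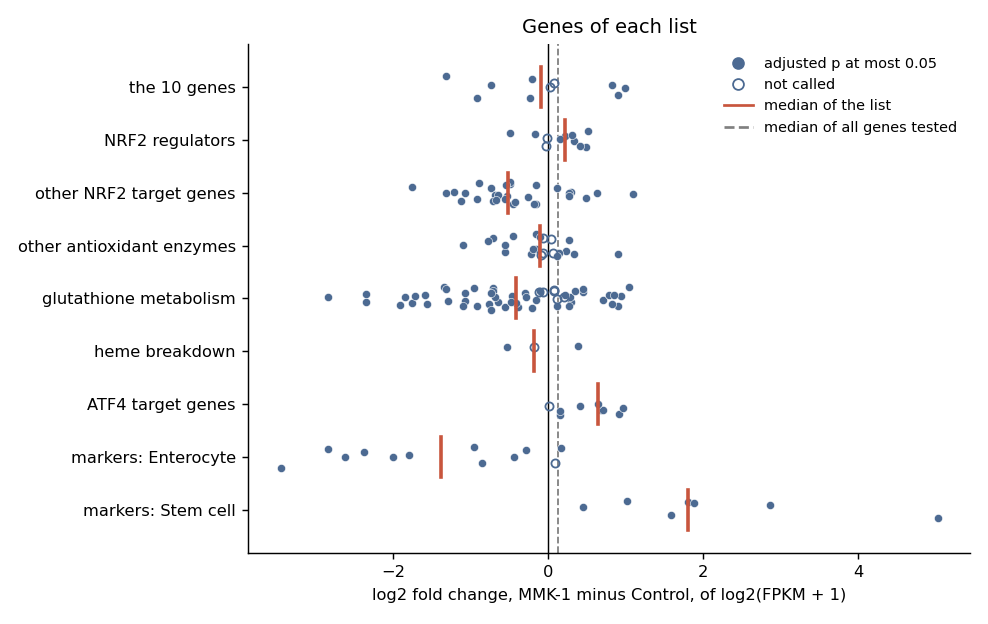
Log2 fold change (MMK-1 minus Control on the log2(FPKM + 1) scale) of every tested gene of each list, with filled points for adjusted p of at most 0.05, open points for genes not called, red lines for list medians and a dashed line for the median of all genes tested. The medians were −0.09 for the 10 genes, −0.51 for other NRF2 target genes, 0.65 for ATF4 targets, −1.37 for enterocyte markers and 1.80 for stem cell markers.

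Cell type markers moved with these genes. All 6 epithelium markers were expressed, with a sum of 3279 to 3311 FPKM in Control and 2313 to 2496 FPKM with MMK-1, and the 7 mesenchyme markers summed to at most 0.383 FPKM in any library. Of the epithelium markers, Vil1 (566 to 245 FPKM, log2 fold change −1.21), Krt19 (1216 to 706 FPKM, −0.78) and Krt8 (838 to 681 FPKM, −0.30) were lower, Krt18 (0.44) and Cdh1 (0.17) were higher, the call of Cdh1 being lost with median-ratio scaling, and Epcam was not called (392 and 391 FPKM). Of 12 enterocyte markers, 10 were lower and 1 higher, beside 24.7% lower and 48.5% higher over all genes tested. Their median log2 fold change was −1.37, and their sum was 13591 to 13796 FPKM in Control and 9839.8 to 10613 FPKM with MMK-1. The 1 that was higher, Fabp1, lost the call with both other scalings. These markers fell together with Cat, Gclm and Srxn1, and their part in those falls was not tested.

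Markers of several cell types rose together with Gpx2, Hmox1 and Slc7a11. All 7 stem cell markers were higher, with a median of 1.80 and a sum of 78.4 to 80.2 FPKM in Control and 399 to 426 FPKM with MMK-1. All 5 Paneth cell markers were higher as well (median 1.78, sum 389 to 429.7 FPKM and 1266 to 1387 FPKM), and so were all 5 proliferation markers (median 0.94, sum 169 to 170.4 FPKM and 265 to 282 FPKM). Of 6 goblet cell markers, 4 were higher and 2 lower, and with median-ratio scaling 2 were higher and 2 lower. Of 5 enteroendocrine markers, 4 were higher and 1 was not called. Over all genes tested, 48.5% were called higher and 24.7% lower. With so few markers, the goblet and enteroendocrine counts are not read as results. None of the 4 tuft cell markers reached the minimum level, and their sum was 1.10 to 1.23 FPKM in Control and 1.65 to 1.87 FPKM with MMK-1. The part of these cell types in the rises was not tested.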

How the data were processed

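RNA was sequenced from small intestinal organoids, 3 Control and 3 MMK-1 libraries. Per the study's methods and labels, RNA was extracted with Trizol and libraries were sequenced as paired-end reads. The submitters' processing notes name HISAT2, HTSeq, R 3.2.0, DESeq2 and the mm10 build, with no roles. The values the authors deposited are FPKM, that is, fragments per gene over its length and the library total, with no further scaling stated. Annotation columns of the table were used for KEGG terms, and 0 columns of other samples were found.

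Genes with a mean of at least 1 FPKM were tested with limma 3.58.1 (R 4.3.3, trend) on log2(FPKM + 1), MMK-1 minus Control, with Benjamini-Hochberg adjustment over all 10551 genes and a threshold of 0.05. The study's thresholds (fold 2, unadjusted p 0.05), applied to limma's p-values, were the second rule. Ratios within a library were compared by exact two-sided permutation, and the same test on the FPKM of single genes gave p = 0.1, the smallest possible, for 9 genes and 0.8 for Nfe2l2. Deposited FPKM values were whole fragments times a factor (tolerance 0.02) for 100.00% of the 20676 genes above 0, which gave library totals of 35512739 to 37537463 fragments. Counting error alone is what fragment numbers cover. The scripts were tested on simulated data.

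Alternatives were 2 scalings, no filter, a pseudocount of 0.1, limma-voom on fragments, a replicate block, each library left out and, chosen after seeing the data, the ratio of mean FPKM as the fold and a loess correction for GC content of transcripts (span 0.3, 96.3% of genes matched). The members and lists (NRF2 regulators, other NRF2 target genes, other antioxidant enzymes, glutathione metabolism, heme breakdown, ATF4 targets and cell type markers) were chosen with earlier results of these data known. Named were all members, Keap1, Bach1, Gpx1 and, from each list, up to 3 genes that rose and 3 that fell most among those called without overlap. Outside this rule, Atf4, Blvra, genes that hold most of a sum and genes shared by lists were named. So were those marked as chosen after their values were seen. Of the cell type lists, only genes that bear on a result are named. Gene coordinates and sequences are from RefSeq GRCm38.p6, the assembly behind mm10. FPR family genes were not analysed.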

Additional observations from a re-analysis of the deposited data

How the results depend on the processing

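The 3 members called higher and the 5 called lower kept their calls in all 13 alternatives, with counts of 3 to 4 higher and 5 lower when each library was left out in turn. The count with a fold change of at least 2 was 1 as deposited and 2 with median-ratio scaling and with GC content correction, where Gclm joined Cat at −1.05 and −1.12. It was also 2 with a pseudocount of 0.1, with limma-voom and with the ratio of mean FPKM, where Slc7a11 joined, and 1 to 2 when each library was left out. The log2 fold change of Nfe2l2 was −0.05 with upper-quartile scaling, −0.11 with median-ratio scaling and −0.04 with GC content correction, and it ranged from −0.04 (without MMK-1 replicate 1) to 0.13 (without MMK-1 replicate 3) when libraries were left out. That of Txnrd1 was −0.0024 and −0.07 with the same 2 scalings, which lower every value by construction. The ratio of Nfe2l2 to Keap1 ranged from −0.03 to 0.20 on the log2 scale when libraries were left out, with −0.03 without MMK-1 replicate 1 and −0.02 without MMK-1 replicate 2. The cause was not tested.

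A replicate block, run because the labels number the libraries 1 to 3 in both groups, called 5024 genes higher and 2543 lower in place of 5118 and 2606, and 3 members higher and 5 lower. The deviations of same-numbered libraries correlated at 0.025, −0.040 and 0.028. Of the 6 libraries, 2 correlated best with their own number in the other group. With 3 libraries per group, and MMK-1 replicate 3 apart from the rest, this check cannot tell whether same-numbered libraries share mice or a culture. With the block the log2 difference was 0.70 for Gclc to Gclm and 0.98 for Gpx2 to Gpx1 (exact p = 0.25, the smallest that 3 pairs allow) and 0.05 for Nfe2l2 to Keap1. Across all genes, 743 passed the fold rule on the log2(FPKM + 1) scale and 1234 with the ratio of mean FPKM. Limma-voom on the recovered fragments called 5118 genes higher and 2591 lower. Depth was lowest for Hmox1 and Slc7a11, the members with the fewest fragments.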
